A study of Mus musculus with 15 samples.

Results

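Gene expression in the ileum was compared between 5 mice gavaged with proanthocyanidins (PAC) of medium mean degree of polymerization (mDP) and 5 mice gavaged with PAC of low mDP, which together made up 10 of the 15 mice of the series. The remaining 5 mice received water and entered the statistical model, where they added to the estimate of the spread between mice. Group membership came from the sample labels. The group described here as medium mDP PAC is labelled High PAC, with high molecular weight PAC as its treatment, and is the group that the study's methods call medium. All 15 animals were female C57BL/6 mice (C57BL/6JOlaHsd in the methods), aged 8 weeks according to the labels, on the same purified control diet and without a genetic modification or a disease model. Both PAC groups received 200 mg/kg body weight every 2 days for 10 days, and by the study's methods the low mDP fraction had an mDP of 3.5 and the medium mDP fraction an mDP of 8.3. The comparison asked whether the ileal transcriptome differed between PAC of low and medium mDP at an equal dose by weight and an equal schedule. The dose was not matched by number of chains, so polymer size and chain number cannot be told apart. These were the 1 pair of PAC preparations given to these mice.

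PAC, or condensed tannins, are polyphenols built from flavan-3-ol units such as catechin and epicatechin, and the mDP is the mean number of units in a chain. Both preparations were Sephadex LH-20 fractions of grape pomace, which are mixtures of chain lengths and not single compounds. The ileum is the last segment of the small intestine. Its enterocytes take up bile acids, cobalamin, remaining lipids, sugars, peptides and nucleosides, its Paneth cells secrete antimicrobial peptides, and lymphoid follicles known as Peyer's patches lie in its wall. Pieces of whole tissue were sequenced, so that fewer cells of a type and less RNA per cell cannot be told apart in these data.

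The libraries of the 10 PAC mice held between 15963086 and 17891096 expected counts, and 16138 to 16392 genes were listed per mouse. Levels are given as FPKM, fragments scaled to transcript length and to the mapped fragments of the library. The tissue carried the defining transcripts of ileum. Fabp6, the ileal bile acid binding protein, had 7011 ± 657 FPKM in the low mDP group and 7789 ± 1749 in the medium mDP group (SD, n = 5 each). The bile acid exporter subunits Slc51a and Slc51b stood at 642 ± 56.2 and 420 ± 44.7 FPKM in the low mDP group. In the medium mDP group they stood at 635 ± 91.1 and 408 ± 33.9 FPKM.

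One library stood apart from the others before any group comparison. On the first principal component, which held 32.2% of the variance among the 10 PAC mice, medium mouse 3 lay at 176.4 while the other PAC mice lay between -47.4 and 21.9. Its FPKM values summed to 677075, against 530932 to 573980 in the other 9. The difference between the median centred log2(FPKM + 0.1) of transcripts shorter than 1000 bases and that of transcripts of 6000 bases or more was 0.78 in this mouse. In the other 9 PAC mice it lay between -0.18 and 0.11, and in the 5 water mice between -0.23 and 0.01. Medium mouse 3 therefore had relatively more signal from short transcripts and less from long ones than any of the other 14 mice. Several of the results below are also given without it, where this is stated.

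**Figure D1:**
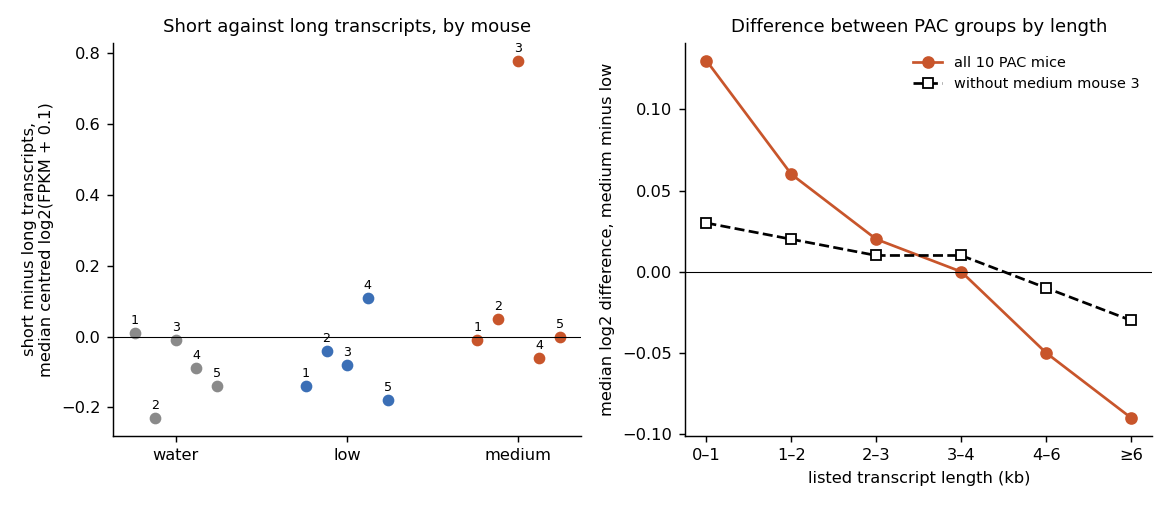
Left, the median centred log2(FPKM + 0.1) of transcripts under 1000 bases minus that of transcripts of 6000 bases or more, 1 numbered point per mouse in the water, low mDP PAC and medium mDP PAC groups. Medium mouse 3 lies at 0.78 and the other 14 mice between -0.23 and 0.11. Right, the median log2 difference between medium and low mDP PAC in 6 classes of listed transcript length, for all 10 PAC mice (filled circles) and without medium mouse 3 (open squares). It runs from 0.13 to -0.09 with this mouse and from 0.03 to -0.03 without it.

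Across the ileal transcriptome, no gene differed between medium and low mDP PAC after correction for multiple testing. With edgeR's quasi-likelihood test over 14386 genes, 0 genes (0%) had a Benjamini-Hochberg adjusted p under 0.05, and the smallest adjusted p was 0.896. DESeq2, limma-voom and limma-trend on FPKM also gave 0 genes. At an unadjusted p under 0.05 there were 559 genes (3.89%), of which 264 (1.84%) were higher and 295 (2.05%) were lower with medium mDP PAC. With upper-quartile in place of TMM scaling, which moved the median of all genes from 0.00 to 0.04, there were 509 higher and 167 lower genes at that p. Without medium mouse 3 the count was 264 genes, 130 higher and 134 lower, and 189 of the 559 genes had an unadjusted p under 0.05 in both fits. Medium mouse 3 had the highest FPKM of the 10 PAC mice in 216 of the 264 higher genes and the lowest in 210 of the 295 lower genes.

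The lengths of these genes differed along with that mouse. The median listed transcript length was 1811 bases in the 264 higher genes and 4780 bases in the 295 lower genes, against 2907 bases over all tested genes. Of the genes under 1000 bases, 52 were higher and 4 lower at an unadjusted p under 0.05, while of those of 6000 bases or more 3 were higher and 112 lower. Without medium mouse 3 these counts were 14 and 2 for short genes and 7 and 37 for long genes. The part that RNA integrity or library preparation played in this pattern was not tested.

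The size of difference that these 10 mice could hide was limited for most genes. The 95% interval of the log2 difference lay within a 2-fold change in either direction for 13386 genes (93.0%) and within 1.5-fold for 10989 genes (76.4%). The median half-width of that interval was 0.60 for genes under 1 FPKM, 0.29 from 1 to 10 FPKM and 0.21 at 10 FPKM or more. An estimate of 2-fold or more was found for 72 genes, 58 higher and 14 lower with medium mDP PAC, and for none of them was the whole interval past 2-fold. All 5 mice of one group lay beyond all 5 of the other in 106 genes (0.737%), with the medium mDP group above in 93 and below in 13. This count uses FPKM as deposited and depends on the scaling, since on TMM-scaled log2 counts it was 59 genes, 24 above and 35 below. The share of the variance of the 10 transcriptomes that lay between the groups was 11.3%, with an exact permutation p of 0.429 over all ways to divide the 10 mice into groups of 5.

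**Figure D2:**
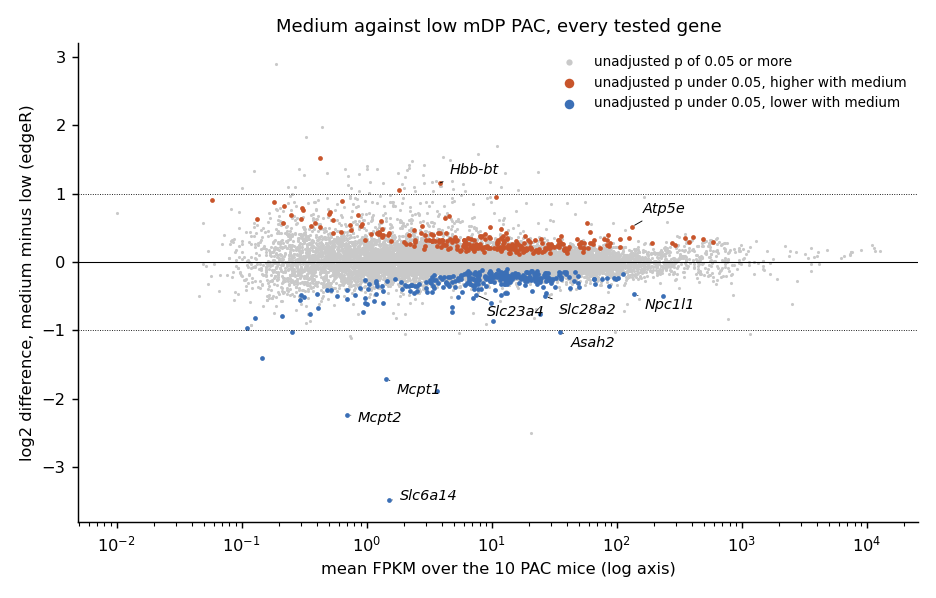
Log2 difference between medium and low mDP PAC (edgeR, medium minus low) against mean FPKM over the 10 PAC mice on a log axis, 1 point per tested gene (14386). Genes with an unadjusted p under 0.05 are coloured by direction, and dotted lines mark a 2-fold difference. No gene passed an adjusted p of 0.05, and the coloured points above 1 FPKM lie mostly within 2-fold.

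Among the 12 genes with the smallest p that were lower with medium mDP PAC, a pair of transporters for purine building blocks was found. Slc23a4 (chr6:34945286-34988495, minus strand, GRCm38), a sodium-dependent nucleobase transporter of the rodent small intestine, had 7.76, 9.32, 7.81, 10.18 and 7.82 FPKM in low mDP mice 1 to 5. In medium mDP mice 1 to 5 it had 5.43, 6.89, 6.29, 6.94 and 6.11 FPKM. All 5 medium mDP mice lay below all 5 low mDP mice, and medium mouse 3 was in the middle of its group. The log2 difference was -0.48 (SE 0.13, 95% interval -0.76 to -0.20), with an unadjusted p of 0.00225, an adjusted p of 0.896 (edgeR) and an exact permutation p of 0.0079. This is the smallest p that 5 against 5 mice allow in a two-sided test. Groups did not overlap in FPKM in 106 of 14386 genes (0.737%), and Slc23a4 was picked by its p in these same mice.

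Slc28a2 (chr2:122426357-122461152, plus strand, GRCm38), which encodes the concentrative nucleoside transporter CNT2 with a preference for purine nucleosides, was one of the genes that the study listed for medium mDP PAC against water. It had 27.35, 43.39, 21.14, 34.44 and 27.59 FPKM in low mDP mice 1 to 5. In medium mDP mice 1 to 5 it had 21.13, 20.98, 25.08, 26.44 and 18.91 FPKM. The groups overlapped through low mouse 3, which lay within the medium mDP range, and the other 4 low mDP mice lay above all medium mDP mice. Its log2 difference was -0.50 (SE 0.16, 95% interval -0.84 to -0.17), with an unadjusted p of 0.00583, an adjusted p of 0.896 (edgeR) and an exact permutation p of 0.0397.

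Against water, Slc23a4 differed by -1.05 (SE 0.13) with medium and by -0.57 (SE 0.13) with low mDP PAC on the log2 scale. For Slc28a2 the corresponding values were -1.34 (SE 0.16) and -0.83 (SE 0.16). These comparisons share the water mice, in which the means were 12.3 ± 2.27 FPKM for Slc23a4 and 53.2 ± 7.07 FPKM for Slc28a2. Slc23a4 was also set for naming as a gene called against water, and Slc28a2 came from the study's list against water. Their differences against water are therefore not independent evidence. Another transporter, the broadly selective nucleoside carrier Slc28a3, had 4.66 ± 0.776 FPKM with low and 3.91 ± 0.457 with medium mDP PAC, a log2 difference of -0.29 (SE 0.13, unadjusted p = 0.0421). Of the 11 tested members of the Slc28, Slc29 and Slc23 families, which besides nucleoside and nucleobase carriers include the vitamin C transporters Slc23a1 and Slc23a2 and the orphan Slc23a3, 3 were lower and 0 higher at an unadjusted p under 0.05, where 2.05% of all genes were lower and 1.84% higher, and the median log2 difference was -0.07 against 0.00 over all genes. The equilibrative transporter Slc29a1 ran the other way at 12.6 ± 0.718 FPKM with low and 14.8 ± 0.728 with medium mDP PAC. Its groups did not overlap in FPKM but did after TMM scaling, with an exact permutation p of 0.0079 on FPKM. The log2 difference by edgeR was 0.19 (95% interval -0.01 to 0.38). Without medium mouse 3 it was 0.22 with an unadjusted p of 0.0376 by edgeR, and the median of the 11 members was -0.03.

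The other 10 lower genes of that group of 12 were picked by p alone and are given one by one. Pcf11, a subunit of the machinery that cleaves pre-mRNA and ends transcription, had the smallest p of all genes (unadjusted p = 0.000293, adjusted p = 0.896 by edgeR). It had 14.56, 15.29, 15.35, 15.21 and 15.46 FPKM in low mDP mice and 12.94, 13.20, 12.71, 13.70 and 12.44 FPKM in medium mDP mice. The groups did not overlap, the log2 difference was -0.26 (SE 0.06), and without medium mouse 3 it was -0.24.

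Hmbox1, a homeobox gene, differed by -0.32, the histone acetyltransferase Kat6b by -0.31, Arid5b by -0.40, the RNA polymerase II binding protein Rprd2 by -0.19, Asxl2 by -0.25 and the transcription kinase Cdk12 by -0.25. Cep350, a centrosomal protein, differed by -0.29, the glucose phosphate enzyme Pgm1 by -0.30 and the collagen VI chain Col6a5 by -0.58. Medium mouse 3 was the lowest of the 10 PAC mice in 8 of these 12 genes. Without that mouse their log2 differences lay between -0.53 and -0.15. The 12 genes had listed lengths of 2172 to 13307 bases with a median of 6412.

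The 12 genes with the smallest p that were higher with medium mDP PAC included Acaa2, Slc25a4 and Atp5e, whose proteins act in mitochondria. Acaa2, the mitochondrial thiolase that cuts fatty acids in the last step of beta-oxidation, had 79.26, 56.63, 77.01, 62.39 and 70.07 FPKM in low mDP mice. In medium mDP mice it had 80.43, 81.93, 104.99, 78.88 and 102.20 FPKM. The groups overlapped by a single pair, low mouse 1 and medium mouse 4. For Acaa2, the log2 difference was 0.34 (SE 0.11, 95% interval 0.11 to 0.57), with an exact permutation p of 0.0159.

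Slc25a4, the ADP/ATP carrier of the inner mitochondrial membrane, had 93.11, 57.34, 81.35, 50.00 and 78.34 FPKM in low mDP mice and 91.18, 98.08, 93.93, 94.60 and 108.00 FPKM in medium mDP mice. The 5 medium mDP mice lay close together, and low mouse 1 reached their level while low mice 2 and 4 had the lowest values. The log2 difference was 0.39 (SE 0.13, 95% interval 0.12 to 0.67), with an exact permutation p of 0.0159. Without medium mouse 3 the differences were 0.29 for Acaa2 and 0.42 for Slc25a4.

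Atp5e, a small subunit of ATP synthase whose transcript is listed at 419 bases, had 121.75, 119.35, 101.34, 84.43 and 102.72 FPKM in low mDP mice. Its values in medium mDP mice were 130.77, 127.31, 252.08, 129.37 and 145.79 FPKM. The groups did not overlap in FPKM but did after TMM scaling, and medium mouse 3 was far above the rest. This gave a log2 difference of 0.51 (SE 0.17), or 0.30 without that mouse.

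The peroxisomal membrane channel Pxmp2 differed by 0.42, the nucleotide synthesis regulator Prpsap2 by 0.29 (0.23 without medium mouse 3), the COP9 signalosome subunit Cops8 by 0.22 and Pithd1 by 0.27. The pseudouridine synthase Pus7 differed by 0.24, the ribonuclease P subunit Rpp14 by 0.31, the zinc finger gene Zfp41 by 0.41 and Ackr1, an atypical chemokine receptor of venules and red cells, by 0.52. The largest difference of the 12 was that of the beta globin gene Hbb-bt at 1.16, described with the blood genes below. Medium mouse 3 was the highest of the 10 in 7 of the 12, and their listed lengths ran from 419 to 3907 bases with a median of 1527.

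**Figure D3:**
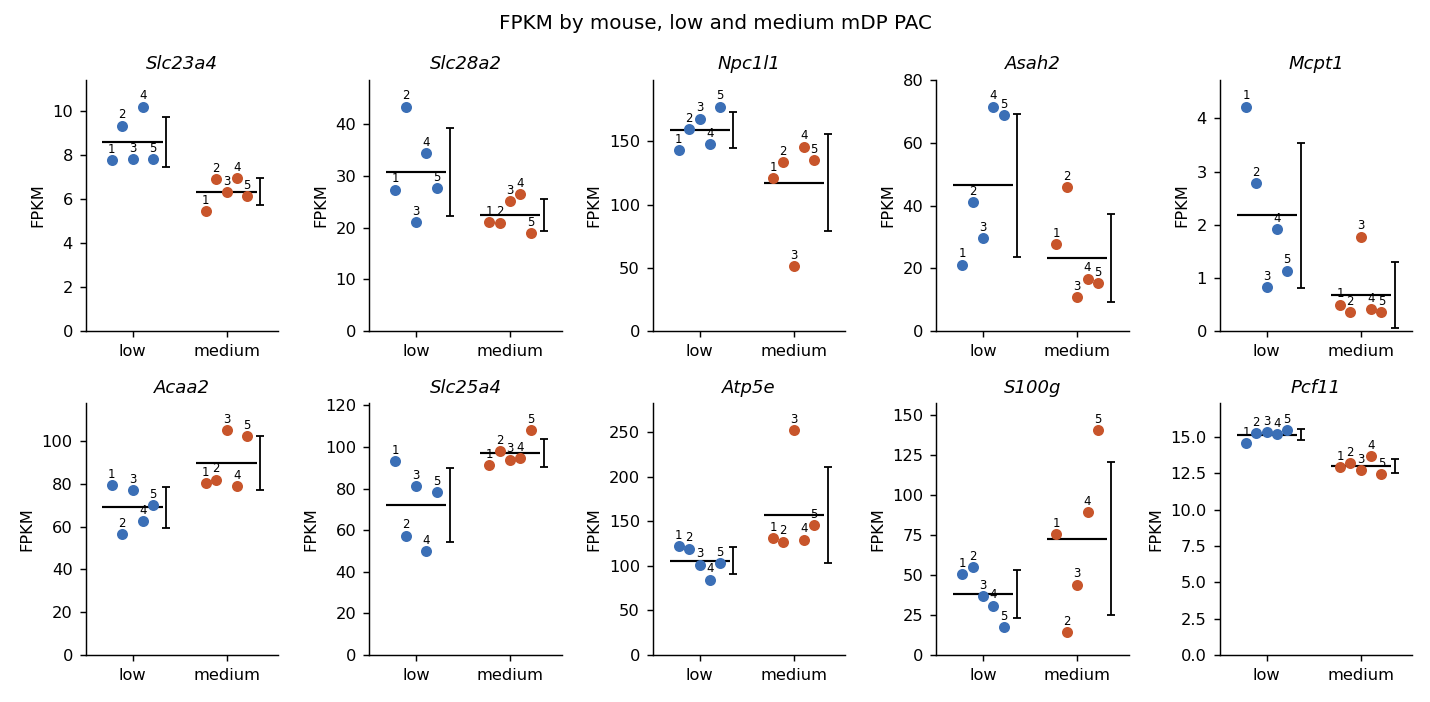
FPKM of 10 genes in each low mDP (blue) and medium mDP (orange) PAC mouse, 1 numbered point per mouse, with the group mean (line) and SD (bar, n = 5). On this scale the groups do not overlap for Slc23a4, Atp5e and Pcf11 (after TMM scaling they do for Atp5e), while medium mouse 3 is the farthest point of its group for Npc1l1, Mcpt1 and Atp5e.

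A set of 26 genes that the study named for medium mDP PAC against water was next compared between the PAC groups. The set does not hold every gene that the study called, and any other was not counted here. These genes had been picked on these same medium mDP mice, so their direction here is not independent evidence. Of the 26, 12 were higher and 14 lower with medium than with low mDP PAC, 1 was higher and 2 lower at an unadjusted p under 0.05 (all genes 1.84% and 2.05%), and 0 passed an adjusted p of 0.05. The median log2 difference was -0.25, or -0.12 without medium mouse 3, and ranged from -0.34 to 0.08 when each PAC mouse was left out in turn. The 95% interval crossed 0 for 23 genes and lay within 2-fold for 5, and the groups overlapped for all 26. With medium mouse 3 left out, 3 were higher and 1 lower at an unadjusted p under 0.05, the first including S100g.

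Asah2, the neutral ceramidase that digests dietary sphingolipids at the brush border, had 21.22, 41.26, 29.69, 71.58 and 68.87 FPKM in low mDP mice. In medium mDP mice it had 27.80, 45.86, 10.85, 16.78 and 15.26 FPKM. Medium mice 3, 4 and 5 lay below every low mDP mouse and medium mouse 2 lay above low mice 1, 2 and 3. Between the groups, the log2 difference was -1.03 (SE 0.44, 95% interval -1.96 to -0.10), with an unadjusted p of 0.0316 and an exact permutation p of 0.0794. When medium mouse 3 was left out it was -0.83 with an unadjusted p of 0.085 by edgeR.

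S100g, the calcium carrier of the enterocyte cytosol, had 50.68, 54.75, 36.58, 30.80 and 17.33 FPKM with low and 75.44, 14.03, 43.96, 89.26 and 140.40 FPKM with medium mDP PAC. Medium mice 1, 4 and 5 lay above all low mDP mice, while medium mouse 2 was the lowest of the 10. S100g had a log2 difference of 0.88 (95% interval -0.07 to 1.82, exact permutation p = 0.325). The 8 tested genes of calcium absorption and vitamin D had a median log2 difference of -0.05, with 0 at an unadjusted p under 0.05. The best expressed members, the claudin Cldn2 and the vitamin D receptor Vdr, had log2 differences of 0.13 (95% interval -0.23 to 0.50) and -0.15 (95% interval -0.37 to 0.07).

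Several of the listed genes divided the mice within both PAC groups. Gata4, a transcription factor of the proximal small intestine, had 0.48, 0.91, 1.97, 6.23 and 4.19 FPKM in low mDP mice and 0.58, 4.23, 0.75, 0.72 and 0.39 FPKM in medium mDP mice. Low mice 3, 4 and 5 and medium mouse 2 were high, and the other 6 PAC mice were under 1 FPKM. The brush border phospholipase Plb1 had 32.73, 12.96, 103.11, 251.99 and 230.96 FPKM in low mDP mice and 35.66, 195.14, 35.79, 17.59 and 53.27 FPKM in medium mDP mice.

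The same 4 mice were the 4 highest for Plb1, for Fam151a, at 24.97 to 58.49 FPKM against 2.99 to 18.34 in the other 6, and for Enpp7, the alkaline sphingomyelinase, at 213.41 to 282.24 against 31.55 to 146.90. The score of the 10 tested proximal small intestine markers, the mean log2(FPKM + 0.1) centred on each gene, was 0.12 to 0.34 in these 4 mice and -0.90 to -0.19 in the other 6. Gata4 is a member of that list, and without it the score was -0.04 to 0.28 in the 4 mice and -0.87 to 0.04 in the other 6, so that the ranges overlapped. The score of the 10 tested distal ileum markers was -0.07 to 0.13 in the 4 mice and -0.18 to 0.16 in the other 6. The place along the ileum where each piece was taken was not given in the sources used here, and its part in these differences was not tested. The log2 differences between the groups were -1.06 for Gata4, -1.03 for Plb1, -0.82 for Fam151a and -0.55 for Enpp7, with 95% intervals that all crossed 0.

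The inflammation genes of the study's list varied widely between mice of the same group. Reg3g, a secreted lectin that kills Gram-positive bacteria, had 601.33, 5722.10, 595.08, 376.04 and 351.84 FPKM in low mDP mice. In medium mDP mice it had 522.88, 297.11, 1567.60, 1300.60 and 241.06 FPKM. Low mouse 2 was the highest of the 10, and the next were medium mice 3 and 4. Reg3g had a log2 difference of -1.05 (95% interval -2.66 to 0.56), and without low mouse 2 it turned to 0.67.

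Nos2, the inducible nitric oxide synthase, had 78.44 FPKM in low mouse 2 and 64.56 FPKM in medium mouse 4, against 6.30 to 29.61 FPKM in the other 8. Its log2 difference was -0.47, or 0.14 without low mouse 2. The 12 tested genes of the antimicrobial and oxidant response had a median of -0.47, with 2 higher, 10 lower and 0 at an unadjusted p under 0.05. Leaving out 1 PAC mouse at a time moved that median between -0.69 and 0.17. Reg3g and Reg3b are related genes, and how reads were assigned between them was not examined.

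Other genes of the list also had intervals that crossed 0. Rspo1, a Wnt agonist, had 1.06 ± 0.449 FPKM with low and 1.17 ± 0.762 with medium mDP PAC, a log2 difference of 0.10 (95% interval -1.07 to 1.27). Apoa4, an apolipoprotein of chylomicrons, had 241 ± 83.6 and 201 ± 55.6 FPKM, a difference of -0.30 (95% interval -0.88 to 0.27). Ace had 96.5 ± 23.6 and 74.2 ± 31.2 FPKM, a difference of -0.44 (95% interval -1.06 to 0.19). The homeobox genes Hoxb5 and Hoxb7 differed by 0.20 (95% interval -0.13 to 0.54) and 0.25 (95% interval -0.41 to 0.90).

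Genes of nutrient absorption were described as lists by their counts and medians, to be read against a median of 0.00 over all genes and 2.05% of all genes lower at an unadjusted p under 0.05. Most members of the lipid, peptidase, sugar and amino acid lists had lower means with medium mDP PAC, and these medians lay nearer to 0 without medium mouse 3. Of 22 tested genes of lipid absorption and chylomicron assembly, 3 were higher and 19 lower, 3 of these at an unadjusted p under 0.05, and the median log2 difference was -0.12. With medium mouse 3 left out the median was -0.03, and 8 of the 22 were higher. The 3 members past the unadjusted threshold were sterol transporters of the enterocyte apex.

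Npc1l1, which takes up cholesterol and plant sterols, had 142.67, 159.37, 167.72, 147.89 and 177.22 FPKM with low and 120.95, 133.38, 51.37, 145.76 and 135.27 FPKM with medium mDP PAC. Medium mouse 4 alone reached the low mDP range, and medium mouse 3 was far below the others. Npc1l1 had a log2 difference of -0.47 (SE 0.21, 95% interval -0.91 to -0.03, unadjusted p = 0.0366, exact permutation p = 0.0159), or -0.27 without medium mouse 3. Against water, the values were -0.98 (SE 0.21) with medium and -0.51 (SE 0.21) with low mDP PAC.

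Abcg5 and Abcg8, which together return sterols to the lumen, had 106 ± 13.1 and 49.3 ± 6.82 FPKM with low mDP PAC. With medium mDP PAC they had 91.7 ± 10.3 and 41.7 ± 6.75 FPKM, and the log2 differences were -0.26 (SE 0.11) and -0.28 (SE 0.12). The groups overlapped for both, and without medium mouse 3 the differences were -0.18 and -0.17. Of the well expressed lipid genes, Fabp2 differed by -0.03 (95% interval -0.44 to 0.39), Apoa1 by -0.13 (95% interval -0.44 to 0.17) and Fabp1 by 0.59 (95% interval -0.37 to 1.54).

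For cholesterol synthesis, all 22 tested members had lower estimates with medium mDP PAC, 0 of them at an unadjusted p under 0.05, with log2 differences between -0.18 and -0.01 and a median of -0.11. The interval lay within 2-fold for all 22. Leaving out medium mouse 3 gave a median of -0.08 with 1 member higher. The per-mouse score ran from -0.26 to 0.38 in low mDP mice and from -0.03 to 0.24 in medium mDP mice, so the groups overlapped fully. In the comparisons with water, which share the water mice, the medians were 0.19 with medium and 0.28 with low mDP PAC.

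The lower medians of brush border digestion depended on medium mouse 3. All 11 tested peptidases were lower with medium mDP PAC (median -0.17, 0 at an unadjusted p under 0.05), and without that mouse the median was -0.02 with 4 higher. Anpep, aminopeptidase N, had 2623 to 3244 FPKM in the low mDP mice and 2717 to 3057 in medium mice 1, 2, 4 and 5, but 1216 in medium mouse 3. Disaccharidases and sugar transporters had a median of -0.19 (2 higher and 9 lower of 11), or -0.01 without medium mouse 3. Amino acid and peptide transporters had a median of -0.17 (3 higher and 14 lower of 17), or -0.01 without it. The score of disaccharidases and sugar transporters was also low in low mouse 2 (-0.9) and medium mouse 4 (-0.58), against -0.97 in medium mouse 3.

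Sis, the sucrase-isomaltase, and Slc15a1, the peptide transporter, were at 200.58 and 54.88 FPKM in medium mouse 3. The other 9 PAC mice had 471.05 to 781.51 and 113.71 to 216.53 FPKM. The enterocyte markers moved with this mouse too. Their score was -0.41 in medium mouse 3 and between -0.13 and 0.07 in the other 9 PAC mice, and the median of the 11 markers was -0.14 with and 0.00 without it. Vil1, villin, was at 500.01 FPKM against 782.81 to 882.80. The part of epithelial content in the brush border values was not tested.

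A member of the amino acid transporter list had a large fold change from 1 mouse. Slc6a14, a broad neutral and cationic amino acid transporter, had 13.12 FPKM in low mouse 2 and 0.02 to 0.48 FPKM in the other 9 PAC mice. The fitted log2 difference was -3.49 (SE 1.27, unadjusted p = 0.0144) while the exact permutation p was 0.81, and without low mouse 2 the difference was 0.75.

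Bile acid uptake is a task that sets the ileum apart. Of 9 tested genes of bile acid uptake and FXR targets, 1 was higher and 8 lower, with a median of -0.07 with and without medium mouse 3, and 8 of the 9 intervals lay within 2-fold. Fgf15, the hormone that ileal enterocytes release in response to bile acids, was named after its values were seen because it had the largest difference of the list. It had 145 ± 46.8 FPKM with low and 96.6 ± 38.6 with medium mDP PAC, a log2 difference of -0.62 (95% interval -1.26 to 0.02, exact permutation p = 0.103). Fabp6 differed by 0.10 (95% interval -0.27 to 0.47), Slc51a by -0.06 (95% interval -0.37 to 0.25) and Slc51b by -0.09 (95% interval -0.38 to 0.19). The nuclear receptor Nr1i2, which senses bile acids and foreign compounds, had 35.6 ± 0.869 FPKM with low and 33.0 ± 2.21 with medium mDP PAC, a log2 difference of -0.15 (SE 0.07, unadjusted p = 0.0383), or -0.09 without medium mouse 3.

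**Figure D4:**
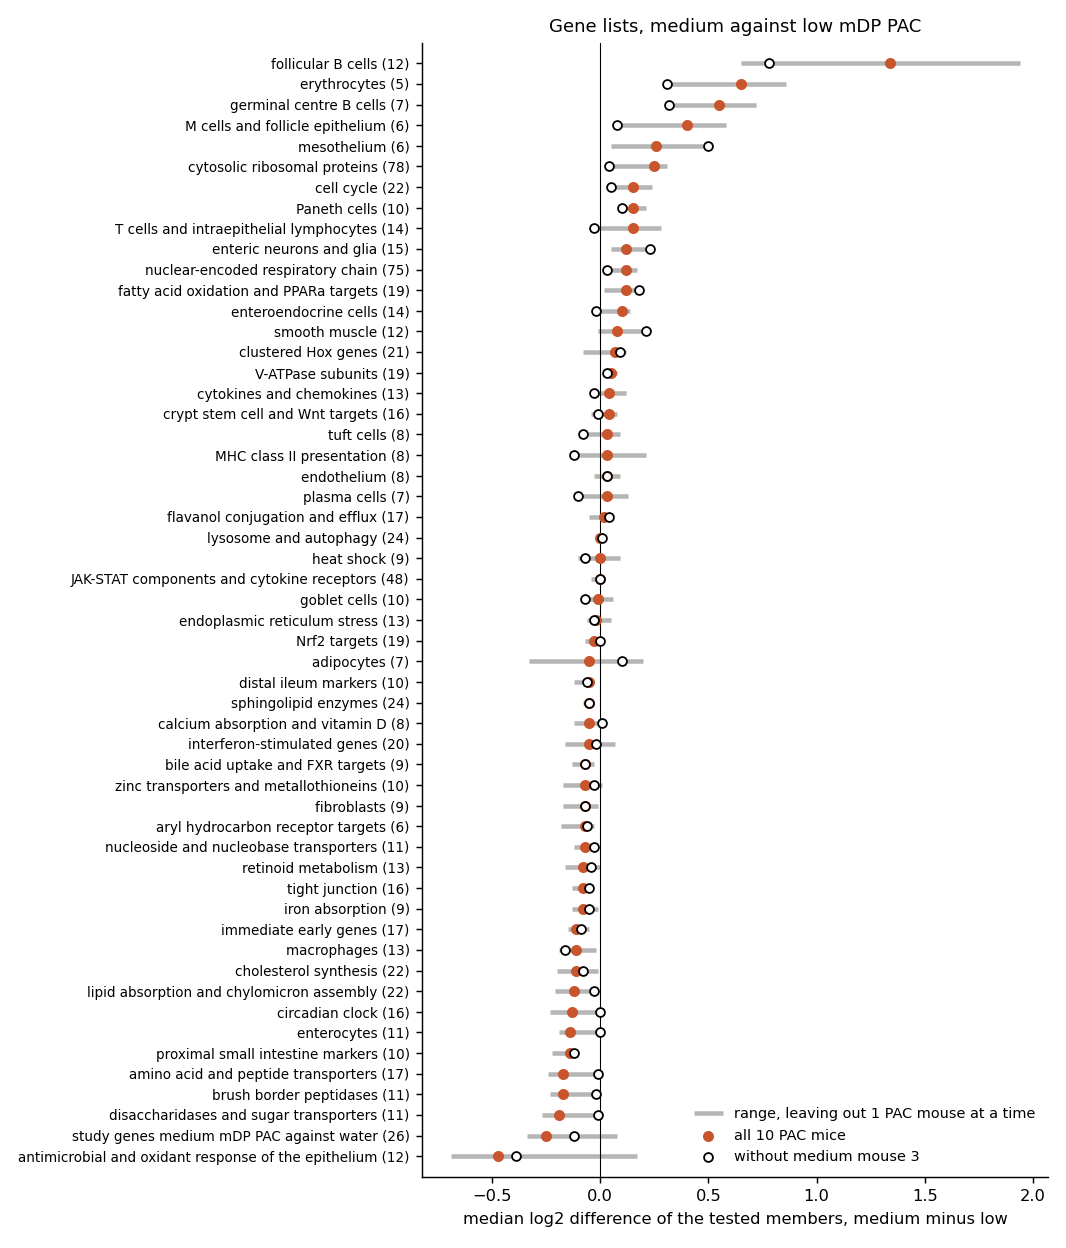
Median log2 difference between medium and low mDP PAC over the tested members of each gene list with 5 or more of them (number tested in parentheses), for all 10 PAC mice (orange) and without medium mouse 3 (open circles). Grey bars give the range when each PAC mouse is left out in turn. Follicular B cells reach 1.34, and the medians of most epithelial lists move towards 0 without medium mouse 3.

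Genes of the protein synthesis and energy machinery were higher with medium mDP PAC in nearly every member, again with medium mouse 3 in front. All 78 tested cytosolic ribosomal protein genes were higher, 5 of them at an unadjusted p under 0.05 (all genes 1.84%), with a median log2 difference of 0.25 against 0.00 over all genes. Without medium mouse 3 the median was 0.04 and 56 of 78 were higher. Their score was 0.88 in medium mouse 3 and between -0.18 and 0.15 in the other 9 PAC mice. Rpl11 had 405.90 to 452.50 FPKM with low mDP PAC and 519.48, 463.02, 897.01, 420.55 and 473.95 FPKM with medium mDP PAC. The log2 difference of Rpl11 was 0.34, or 0.12 without medium mouse 3. Ribosomal protein genes have many processed copies in the genome, which makes their values uncertain.

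Of 75 tested nuclear genes of the respiratory chain, 72 were higher and 3 lower, 6 of them higher at an unadjusted p under 0.05 (all genes 1.84%), and the median was 0.12. The median was 0.03 without medium mouse 3, and 52 were higher. Ndufs3, a core subunit of complex I, had 80.70, 83.64, 76.31, 74.39 and 74.56 FPKM with low and 84.27, 92.41, 121.18, 85.19 and 91.35 FPKM with medium mDP PAC. The groups did not overlap in FPKM but did after TMM scaling, and the log2 difference was 0.24 (SE 0.09), or 0.16 without medium mouse 3. The others were Ndufb6 (0.33), Ndufb2 (0.32), Ndufa4 (0.24), Atp5j2 (0.28) and Atp5e (0.51). Leaving out medium mouse 3 gave 0.19, 0.19, 0.12, 0.12 and 0.30 in the same order.

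Fatty acid oxidation genes and PPAR alpha targets were higher in 14 and lower in 5 of 19 tested members, 0 at an unadjusted p under 0.05, with a median of 0.12. The median was 0.18 without medium mouse 3, with 18 higher, and leaving out each PAC mouse in turn gave medians from 0.02 to 0.18. The per-mouse scores still overlapped. They were 0.32, -0.55, 0.20, -0.49 and 0.19 in low mDP mice and -0.06, 0.09, -0.16, 0.36 and 0.57 in medium mDP mice. Low mice 2 and 4 had the lowest scores, as they had for Slc25a4.

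Immune cell transcripts separated mice within both groups. The 12 tested follicular B cell genes were all higher with medium mDP PAC, with log2 differences between 1.07 and 1.69 and a median of 1.34, but 0 had an unadjusted p under 0.05 and no interval lay within 2-fold. Their median was 0.78 without medium mouse 3 and lay between 0.65 and 1.94 when each PAC mouse was left out in turn. Ms4a1, which encodes CD20, had 0.66, 0.42, 9.38, 0.13 and 14.47 FPKM with low and 38.87, 0.46, 44.64, 0.48 and 0.40 FPKM with medium mDP PAC. Low mice 3 and 5 and medium mice 1 and 3 were high, and the other 6 PAC mice were under 1 FPKM. The exact permutation p was 0.587.

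The B cell score was 2.90 and 3.03 in the high medium mDP mice, 1.31 and 1.56 in the high low mDP mice, and between -2.23 and -1.55 in the other 6. Germinal centre genes had a median of 0.55 and genes of M cells and the follicle epithelium of 0.40, or 0.32 and 0.08 without medium mouse 3. For germinal centre genes the same 4 mice had the highest scores. A gene of the follicle epithelium list, the receptor Tnfrsf11a, was lower at an unadjusted p under 0.05, with a log2 difference of -0.23, or -0.16 without medium mouse 3. T cell genes had a median of 0.15, or -0.03 without medium mouse 3. Whether a tissue piece held a Peyer's patch was not given in the sources used here.

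Of 6 mast cell markers, the chymases Mcpt1 and Mcpt2 had lower means with medium mDP PAC, both at a low level. Mcpt1 (chr14:56017964-56020391, GRCm38), a chymase of mucosal mast cells, had 4.22, 2.78, 0.83, 1.92 and 1.14 FPKM in low mDP mice, from 14 to 70 counts. In medium mDP mice it had 0.50, 0.36, 1.78, 0.42 and 0.36 FPKM, from 6 to 29 counts. Medium mice 1, 2, 4 and 5 lay below all low mDP mice, and medium mouse 3 lay among them. Mcpt1 had a log2 difference of -1.72 (SE 0.75, 95% interval -3.30 to -0.13), with an unadjusted p of 0.0354, an adjusted p of 0.896 (edgeR) and an exact permutation p of 0.0238.

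Mcpt2, a neighbouring and closely similar gene to which reads could be shared, had 2.31, 1.39, 0.38, 0.99 and 0.70 FPKM with low and 0.13, 0.13, 0.52, 0.38 and 0.06 FPKM with medium mDP PAC. Its log2 difference was -2.24 (SE 0.90, unadjusted p = 0.0241). Leaving out medium mouse 3, the differences were -2.42 for Mcpt1 and -2.67 for Mcpt2. The other 4 mast cell markers were too low to test. Cpa3 was at 0.04 to 0.32 FPKM with low and 0.04 to 0.30 with medium mDP PAC, and Tpsb2 at 0.06 to 0.22 and 0.06 to 0.40. Fcer1a was at 0 in 9 of the 10 PAC mice, and Cma1 reached at most 0.19 FPKM. The water mice spread more widely than either PAC group, with Mcpt1 at 2.49 ± 3.24 FPKM.

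Red cell transcripts were higher in all 5 tested members with a median of 0.65, or 0.31 without medium mouse 3. Hbb-bt had 3.82, 1.31, 2.68, 2.79 and 1.08 FPKM with low and 4.08, 3.04, 11.93, 3.79 and 4.30 FPKM with medium mDP PAC. Its log2 difference was 1.16 (SE 0.38, unadjusted p = 0.00753), and without medium mouse 3 it was 0.67. Hba-a1, Hba-a2 and Hbb-bs differed by 0.57, 0.74 and 0.60, or by 0.20, 0.35 and 0.23 without that mouse, and medium mouse 3 was the highest of the 10 for each. Globin genes are near copies of each other, and the amount of blood in the pieces was not measured.

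Among macrophage genes, Cx3cr1, the fractalkine receptor of resident intestinal macrophages, had 4.09 ± 0.612 FPKM with low and 3.39 ± 0.203 with medium mDP PAC. The log2 difference was -0.31 (SE 0.12, unadjusted p = 0.0208, exact permutation p = 0.0556). It was the 1 of 13 tested macrophage genes at an unadjusted p under 0.05 (2.05% of all genes were lower), with 4 higher and 9 lower and a median of -0.11. C1qa differed by 0.06 (95% interval -0.32 to 0.44), and without medium mouse 3 by -0.19.

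**Figure D5:**
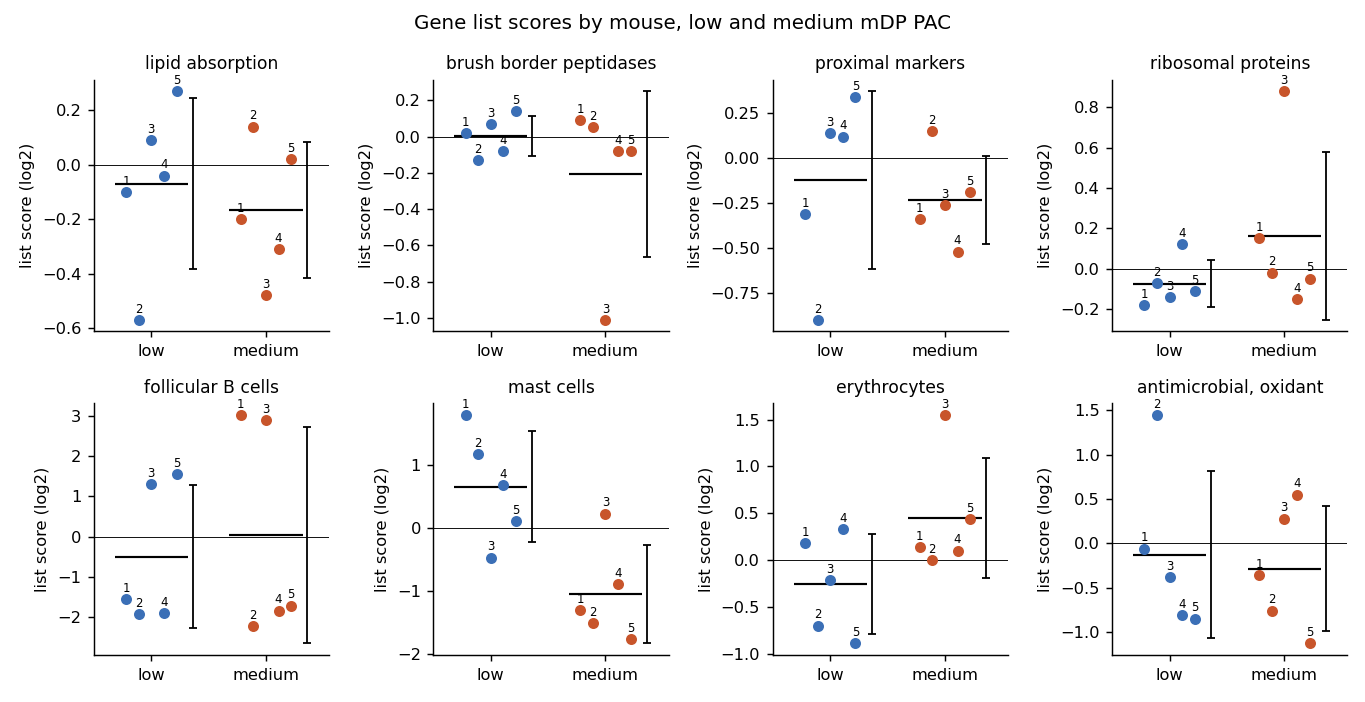
Score of 8 gene lists in each low mDP (blue) and medium mDP (orange) PAC mouse, the mean over the tested members of log2(FPKM + 0.1) centred on each gene, with the group mean (line) and SD (bar, n = 5). Medium mouse 3 is the farthest point of its group for brush border peptidases, ribosomal proteins, erythrocytes and mast cells. For mast cells it lies among the low mDP mice. B cell scores split each group into high and low mice.

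Lists of cytokine signalling, of the response to foreign compounds and of lysosomes showed no difference past the adjusted threshold. Of 48 tested JAK-STAT components and cytokine receptors, 26 were higher and 22 lower with a median of 0.00, and 3 were lower at an unadjusted p under 0.05 (all genes 2.05%). These were the prolactin receptor Prlr (31.7 ± 2.74 FPKM with low and 27.4 ± 2.98 with medium mDP PAC, log2 difference -0.24, SE 0.09), Csf2ra (-0.32, SE 0.14) and Socs4 (-0.26, SE 0.12). All 3 overlapped between the groups, and without medium mouse 3 they differed by -0.17, -0.22 and -0.15. The interferon gamma receptor chain Ifngr1 differed by 0.00 (95% interval -0.20 to 0.20).

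Nrf2 targets, which respond to electrophiles and oxidants, were higher in 8 and lower in 11 of 19 members, with a median of -0.03, and 17 of the 19 intervals lay within 2-fold. Nqo1 had 9.37 ± 1.25 FPKM with low and 9.90 ± 1.19 with medium mDP PAC, a log2 difference of 0.04 (95% interval -0.18 to 0.26). The 6 aryl hydrocarbon receptor targets had a median of -0.07, and 17 genes of flavanol conjugation and efflux had a median of 0.02. Within that list, the efflux pump Abcg2 differed by 0.02 (95% interval -0.47 to 0.50) and the glucuronosyltransferase Ugt2b34 by -0.08 (95% interval -0.28 to 0.12).

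Subunits of the V-ATPase, the proton pump of endosomes and lysosomes, were higher in 13 and lower in 6 of 19 members with a median of 0.05. Atp6v1h, a subunit of its cytosolic part, had 21.56, 23.12, 19.68, 18.53 and 21.78 FPKM with low and 23.91, 25.40, 26.09, 23.33 and 23.50 FPKM with medium mDP PAC. The groups did not overlap in FPKM but did after TMM scaling, and medium mouse 3 was the highest by a small margin. The log2 difference was 0.18 (SE 0.07, 95% interval 0.03 to 0.33, unadjusted p = 0.0207), and it was 0.18 without medium mouse 3 as well. Atp6v0a1, a subunit of the membrane part, had a log2 difference of -0.26 (SE 0.11), or -0.14 without that mouse. The 24 genes of lysosome and autophagy divided into 12 higher and 12 lower, all intervals lay within 2-fold, and Lamp1 differed by -0.03 (95% interval -0.16 to 0.11).

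NOISeq, the method named by the study, was also applied to FPKM with a probability over 0.8 and at least a 2-fold change, and it returned 15 genes, 13 higher and 2 lower with medium mDP PAC. Its probability compares a difference with the noise between mice of all genes together and is no p-value. Among the 13 were the B cell genes Cd79a, Cd79b, Ms4a1, Fcer2a and Fcmr, and the exact permutation p of these lay between 0.54 and 0.675. The exact permutation p was under 0.05 for 2 of the 15, Asdurf at 0.0159 and the histone gene Hist1h2ao at 0.0476. Hist1h2ao had 32.14 FPKM in medium mouse 3 and 9.57 to 10.95 in the other 4 medium mDP mice, against 3.43 to 10.83 with low mDP PAC. Without medium mouse 1 the method returned 4 genes and without medium mouse 3 it returned 5, while without medium mouse 2 it returned 31.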

How the data were processed

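Ileal RNA of 15 mice (5 per group) was sequenced in paired ends on a BGISEQ-500. Per the study's methods, reads were filtered with SOAPnuke and mapped to mm10 with Bowtie2, while the labels' processing notes name HISAT and DESeq2. The counting tool is not given in the sources used here. The authors deposited 1 table per mouse with an expected count and an FPKM value per gene, and 88.6 to 89.5% of the deposited expected counts were whole numbers. Expected counts were rounded before testing.

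Genes were kept by filterByExpr (14386 of 17752) and tested with edgeR 4.0.16 (TMM, quasi-likelihood, 1 model of all 15 mice, R 4.3.3) for medium minus low mDP PAC, with Benjamini-Hochberg adjustment. DESeq2 1.42.0, limma 3.58.1 (voom, and trend on log2(FPKM + 0.1)), other scalings, filters and single mice left out served as alternatives. NOISeq was written anew. Exact two-sided permutation tests used log2(FPKM + 0.1) of the 10 PAC mice, with no scaling between libraries beyond that of the FPKM, and are not adjusted over genes. The scripts were tested on simulated data. Each table is 1 mouse, so p-values measure the spread between mice.

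Genes were named by rule. These were the 12 with the smallest p in each direction with a mean of at least 1 FPKM and no predicted or clone name. Also named were 26 of the genes listed by the study, and genes past an adjusted p of 0.05. In each of 57 gene lists, the members at an unadjusted p under 0.05 and up to 3 by level were named. The members and lists were chosen with earlier results of these data known. Slc23a4 was in addition set for naming because it had been called against water. Asdurf and Hist1h2ao, the NOISeq genes and Cpa3, Tpsb2, Fcer1a and Cma1 were named after their values were seen. Of 949 list entries, 929 matched. A withheld item is not reported here. Coordinates are those of RefSeq GRCm38.p6. Transcript length was taken from the deposited tables, and that comparison, the list values without medium mouse 3, the list medians with upper-quartile scaling, the proximal score without Gata4 and the counts of groups that do not overlap after TMM scaling were added after seeing the data.

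Same-numbered mice of the PAC groups did not deviate together, with correlations between -0.307 and 0.065, so the numbers were not taken as pairs.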

Additional observations from a re-analysis of the deposited data

Results flagged for a closer look

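In groups of 5 mice, a mouse was noted where its gap to the nearest other mouse, divided by the range of its group (the gap ratio), was past the 95% limit of Dixon's test. Of 270 groups examined, 37 (13.7%) held such a mouse. Chance flags about 1 in 20 independent groups, but these groups share mice and genes and some genes were picked by p, so that the share cannot be read against that rate. Medium mouse 3 made up 24 of them, low mouse 2 5, medium mouse 2 4, and low mice 1 and 4 2 each.

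Medium mouse 3 stood apart in its sum of FPKM (gap ratio 0.899), on the first principal component (0.734) and in short against long transcripts (0.869). Among list scores it was lowest for brush border peptidases (0.845), amino acid and peptide transporters (0.84) and enterocytes (0.727). It was highest for the respiratory chain (0.839), enteroendocrine cells (0.77) and erythrocytes (0.716). Among ribosomal protein genes it was highest for Rpl9 (0.796), Rpl11 (0.792), Rpl30 (0.753), Rps15a (0.786) and Rpl35a (0.805). Among genes of the respiratory chain it was highest for Ndufs3 (0.779), Ndufb2 (0.933), Ndufa4 (0.822), Atp5j2 (0.827) and Atp5e (0.852). It was also highest for Mcpt1 (0.901), Prpsap2 (0.898) and Hbb-bt (0.858), and lowest for Npc1l1 (0.737) and Nr1i2 (0.715).

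Low mouse 2 was highest of its group for Slc6a14 (gap ratio 0.981), Reg3g (0.954), Nos2 (0.81) and the colon marker score (0.777), and lowest for the retinoid metabolism score (0.833). Medium mouse 2 was highest for Gata4 (0.906), Plb1 (0.799) and Dnase1 (0.874) and lowest for Hoxb7 (0.756). Low mouse 4 was highest for Csf2ra (0.718) and lowest for Sh3bgr (0.813). Low mouse 1 was highest for Cops8 (0.747) and lowest for Pcf11 (0.722), where its 14.56 FPKM lay nearest to the medium mDP mice.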

How the results depend on the processing

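The count of 0 genes at an adjusted p under 0.05 held in each of 21 alternative fits, and NOISeq returned 15 genes, with 4 to 31 when 1 PAC mouse was left out. The count at an unadjusted p under 0.05, 559, was 361 with only the 10 PAC mice in the fit and ranged from 264 (without medium mouse 3) to 986 (without medium mouse 4) over the fits without 1 mouse. Without medium mouse 5 it was 863. DESeq2 without medium mouse 3, chosen after seeing the data, gave 225. With the replicate number as a block (replicate block), it was 460, and since the numbers do not pair the mice this is given as a value only. Among the 74 genes named by p or from the study, the direction held in all fits for 65. Of the other 153, named by level alone, 72 changed sign when some PAC mouse was left out, Reg3b (-1.03 to 0.59) among them. Directions turned when 1 mouse was left out for Slc6a14 (-3.86 to 0.75), Nos2 (-1.19 to 0.14), B3galt2 (-0.23 to 0.57), Dnase1 (-0.98 to 0.17), Sh3bgr (-0.01 to 0.30), Tshr (-0.73 to 0.10), Xlr3b (-0.28 to 0.43), Rspo1 (-0.30 to 0.35) and Reg3g (-1.43 to 0.67). They also turned with limma-voom for B3galt2 (-0.04), Xlr3b (-0.32) and Rspo1 (-0.08), with limma-trend on FPKM for Xlr3b (-0.17) and Rspo1 (-0.01), and with the replicate block for Rspo1 (-0.09). The cause was not tested. The share of variance between the groups was 6.13 to 14.5% under the alternatives, none with a permutation p under 0.05. Intervals were widest for genes under 1 FPKM, of which 72.3% had an interval within 2-fold against 98.7% at 10 FPKM or more.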

Other observations

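Lists of the gut wall outside the epithelium did not share a direction. The medians were 0.26 for 6 mesothelial genes, 0.12 for 15 genes of enteric neurons and glia and 0.08 for 12 smooth muscle genes, with 0 members at an unadjusted p under 0.05. Without medium mouse 3 they were 0.50, 0.23 and 0.21, and the smooth muscle median reached -0.01 when another mouse was left out. Fibroblast genes had a median of -0.07 (3 higher and 6 lower) and adipocyte genes of -0.05 (2 higher and 5 lower), or 0.10 without medium mouse 3. Smooth muscle actin Acta2 had 218 ± 43.3 FPKM with low and 240 ± 35.0 with medium mDP PAC. Uchl1, an abundant neuronal protein, had 5.42 to 7.60 FPKM with low and 7.37 to 9.25 with medium mDP PAC, with an exact permutation p of 0.0238 and a log2 difference of 0.27 (95% interval -0.34 to 0.88).

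Crypt lists differed little. Of 22 cell cycle genes 19 were higher, with a median of 0.15, or 0.05 without medium mouse 3, and the 10 Paneth cell genes had a median of 0.15, with Defa17 at 11890 ± 1716 FPKM with low and 13784 ± 1716 with medium mDP PAC. Defensin genes are near copies, and their values are uncertain. Crypt stem cell and Wnt targets had a median of 0.04, goblet cells of -0.01 and enteroendocrine cells of 0.10. Without medium mouse 3 these were -0.01, -0.07 and -0.02, with 0 of 10 goblet cell genes and 2 of 14 enteroendocrine genes higher. Circadian clock genes had a median of -0.13, or 0.00 without medium mouse 3, with scores of -0.09 to 0.31 in low mDP mice and -0.52 to 0.36 in medium mDP mice. Immediate early genes had a median of -0.11, and Fosb, at 1.16 ± 0.205 FPKM with low and 0.722 ± 0.336 with medium mDP PAC, differed by -0.74 (SE 0.34, unadjusted p = 0.0468 by edgeR). Interferon-stimulated genes had a median of -0.05 and tight junction genes of -0.08.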
